A study of Mus musculus with 6 samples.

Results

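Spots rich in Cst7 transcripts were compared with spots that held none, within each of the 2 sections of 5xFAD brain in a Visium spatial transcriptomics series. The members were chosen by their own counts. A spot entered if the tissue mask covered it, its barcode was in the count matrix, it held at least 4000 UMIs (unique molecular identifiers, each a counted transcript), and it held more UMIs of mouse Slc17a7 than of mouse Slc17a6. Of the 14524 tissue spots of the series, 3295 in the 5xFAD sections passed, and 2125 of these were members: 453 with 3 or more Cst7 UMIs, called Cst7-rich here, and 1672 with 0, called Cst7-free. The remaining spots, with 1 or 2 Cst7 UMIs, appear only where levels are given by class of Cst7 count. Cst7 chose the spots, so its own values are a description with no test, and it was left out of every fold change, total and list.

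The 5xFAD mice were 12 months old and female, homozygous for human APOE3 (E3 5xFAD) or human APOE4 (E4 5xFAD) in place of most of the mouse Apoe coding sequence, under the mouse Apoe promoter and on a B6.129P2 background. They also carried the 5xFAD transgenes of a B6SJL line, which include human APP with the Swedish, Florida and London mutations driven by the neuronal Thy1 promoter. The comparison sections came from female mice with the same APOE3 or APOE4 alleles and no 5xFAD transgene, young at 3 months and aged at 24 months. Each of the 6 groups was a single coronal section of 1 brain, so nothing here measures the spread between animals. A spot holds RNA from several neighbouring cells, and more cells of a type and more RNA per cell cannot be told apart in it.

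Cst7 encodes cystatin F, an inhibitor of lysosomal cathepsins. In mouse brain it is made by microglia that have taken on the disease-associated state, in which the lipid-sensing receptor TREM2 and its adaptor TYROBP raise phagocytic, lysosomal and lipid-handling genes around amyloid plaques while homeostatic microglial genes recede. Slc17a7 encodes the vesicular glutamate transporter of cortical and hippocampal excitatory neurons, and Slc17a6 that of most thalamic and hypothalamic ones. Cst7 lies at chr2:150570415-150578944 and Trem2 at chr17:48346401-48352276 of GRCm38.p6.

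The E3 5xFAD section had 123 Cst7-rich and 1063 Cst7-free spots among 1650 that met the depth and Slc17a7 rule, and the E4 5xFAD section had 330 and 609 among 1645. The Cst7-rich share was 7.45% in E3 5xFAD and 20.1% in E4 5xFAD, a difference between single brains that has no replicate. No spot of the E3 young, E4 young or E3 aged section reached 3 Cst7 UMIs, and 2 of 683 spots of the E4 aged section did. Summed over all spots that met the rule, Cst7 had 1172 UMIs in the E3 5xFAD section, 2501 in that of E4 5xFAD, 38 and 17 in the aged sections of E3 and E4 mice, and 3 in each young section. Just inside and outside the threshold, 53 E3 5xFAD spots held exactly 3 Cst7 UMIs and 116 held 2, and 125 E4 5xFAD spots held 3 and 290 held 2. Trem2 stood at 232 CPM (UMIs of the gene in every 1000000 UMIs of the group) at 3 Cst7 UMIs and 150 at 2 in E3 5xFAD, and at 218 and 184 in E4 5xFAD. A count of 3 Cst7 UMIs in a spot is a small count, and spots near the threshold differ by 1 counted molecule.

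Cst7-rich spots were deeper than Cst7-free ones, with a median of 13361 against 11846 UMIs in E3 5xFAD and 17039 against 14502 in E4 5xFAD. Each Cst7-rich spot was therefore matched without replacement to the Cst7-free spot of the same section nearest in total UMIs, within 10%. Every Cst7-rich spot found a match, and the matched Cst7-free spots had medians of 13364 UMIs in E3 5xFAD and 17029.5 for E4 5xFAD. The 4 sums (Cst7-rich and matched Cst7-free, in each section) held from 1738460 to 5742873 UMIs. In the E4 5xFAD section 18.7% of the 3270 spots under the tissue mask had no barcode in the matrix and were left out, against 2 of 2775 in E3 5xFAD. Barcodes outside the mask, also left out, numbered 672 in E4 5xFAD and 6 in E3 5xFAD. Whether mask and matrix share 1 alignment was not tested.

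The spots did not all lie in cortex, although the rule was meant to select cortex and hippocampus. Clustering on neural genes gave 12 areas, named here by their leading genes. One area, led by Prkcd, Shox2, Synpo2 and Tcf7l2, of which Tcf7l2 is a defining thalamic marker, held 56 of the 123 Cst7-rich spots of E3 5xFAD (45.5%) but 41 of its 1063 Cst7-free spots (3.86%). In E4 5xFAD the same area held 39 of 330 Cst7-rich spots (11.8%) and 29 of 609 Cst7-free spots (4.76%). Of all spots in it that met the rule, 37.3% were Cst7-rich in E3 5xFAD and 31.7% for E4 5xFAD. Its spots had Slc17a7 at 553 CPM and Slc17a6 at 291 CPM in E3 5xFAD, so that the rule admitted them on a margin far narrower than in the cortical area led by Fezf2, where the levels were 1037 and 34.6 CPM.

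The remaining Cst7-rich spots lay mostly in cortex. Areas led by cortical layer genes held 51 Cst7-rich spots in E3 5xFAD (5.79% of their spots) and 237 in E4 5xFAD (28.8%). Areas led by hippocampal genes held 11 (4.12%) and 44 (12.3%). Within cortex, the deep-layer area led by Trbc2, Fezf2 and Rprm was richest, with 28 of 321 spots in E3 5xFAD and 165 of 382 in E4 5xFAD, and the upper-layer area led by Lamp5 and Rorb had 5 of 262 and 31 of 242. Areas led by the peptide genes Pmch, Hcrt and Gal, by striatal genes (Adora2a, Penk), habenular genes, choroid plexus genes or pituitary genes held 5 of the Cst7-rich spots of E3 5xFAD and 10 of those of E4 5xFAD, but 26.6% and 32.5% of the Cst7-free spots. The area makeup of the Cst7-rich and Cst7-free groups thus differed in both sections, and differently in each. The area led by Pmch, Hcrt and Gal, which also had Dlk1 and Baiap3 among its leading genes, held Pmch at 4144 CPM and Hcrt at 1839 CPM in E3 5xFAD but at 2.37 and 0.474 CPM in E4 5xFAD. Values matched within areas are therefore given beside many of the main ones. That matching kept 100 of 123 pairs in E3 5xFAD and 193 of 330 in E4 5xFAD.

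**Figure D1:**
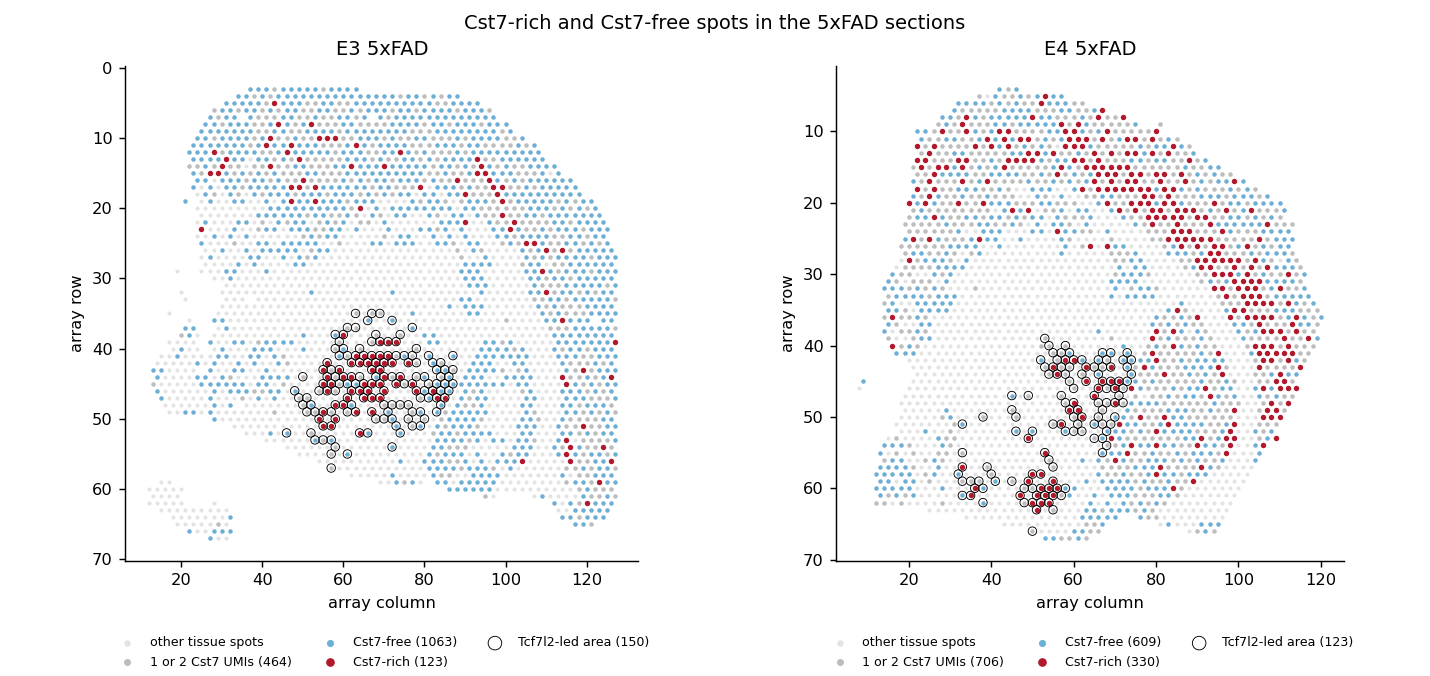
Array position of every tissue spot of both 5xFAD sections (axes in array rows and columns), with Cst7-rich spots in red, Cst7-free spots in blue, spots of 1 or 2 Cst7 UMIs in darker grey, other tissue spots in lighter grey, and black rings around spots of the Tcf7l2-led area. The 123 Cst7-rich spots of E3 5xFAD include 56 in the ringed patch and a thin cortical line, and the 330 of E4 5xFAD include 39 ringed spots and a broad cortical band.

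Cst7-rich spots lay next to other spots with 3 or more Cst7 UMIs more often than Cst7-free spots did. Adjacent tissue spots were counted whether or not they met the depth and Slc17a7 rule. Of those adjacent to a Cst7-rich spot, 34.2% held 3 or more Cst7 UMIs in E3 5xFAD and 34.8% in E4 5xFAD. Adjacent to a Cst7-free spot, 3.73% and 11.7% did. In E3 5xFAD, 88 of the 123 Cst7-rich spots touched such a spot, and in E4 5xFAD 262 of 330 did. Among Cst7-free spots, 177 of 1063 in E3 5xFAD and 259 of 609 in E4 5xFAD touched one. Cst7-free spots thus often bordered a spot with 3 or more Cst7 UMIs, above all in E4 5xFAD. These shares describe 1 section each.

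Microglial receptor, lysosomal and complement genes were among those higher in Cst7-rich spots of both sections, along with markers of the Tcf7l2-led area. Summed counts were tested with edgeR's quasi-likelihood test with section as a term and Benjamini-Hochberg adjustment over all 11226 genes with at least 20 UMIs in each section. At an adjusted p under 0.05, 138 genes were higher in Cst7-rich spots (1.23% of genes tested) and 64 were lower (0.57%). Microglial and immune lists, chosen with earlier results of these sections known, held 59 of the 138 and 0 of the 64. The joint share of these lists among all 11226 genes tested was not counted. All 138 of the higher genes had exact 95% intervals of the log2 ratio above 0 in both sections (intervals here cover counting error only), and 63 of the 64 lower genes had both intervals below 0. The ratio was larger in E3 5xFAD than in E4 5xFAD for 135 of the 138, a difference between single brains whose area makeup differed. Over all genes tested the median log2 ratio was -0.0005 in E3 5xFAD and -0.02 in E4 5xFAD. Matched within areas, 113 of 10515 genes were higher (1.07%) and 8 were lower (0.0761%). The ratio was larger in E3 5xFAD for 102 of these 113. Of the 138 higher genes, 87 were called higher again, which is 77.0% of the 113. Of the 64 lower genes 3 were called lower again.

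Both matchings rest on 4 sums from 2 brains with 1 residual degree of freedom, so the p-values measure how alike the 2 sections were against a spread estimated over all genes. In the fits matched within areas edgeR found no spread between genes beyond that trend, and their p-values carry none of a gene's own. The same held for fits to the nearest Cst7-free spot on the array and for fits restricted to cortical, cortical and hippocampal or Tcf7l2-led areas. On the sums matched on total UMIs, DESeq2 called 37 genes higher and 11 lower, all among those called by edgeR, and edgeR without the section term called 45 and 6.

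**Figure D2:**
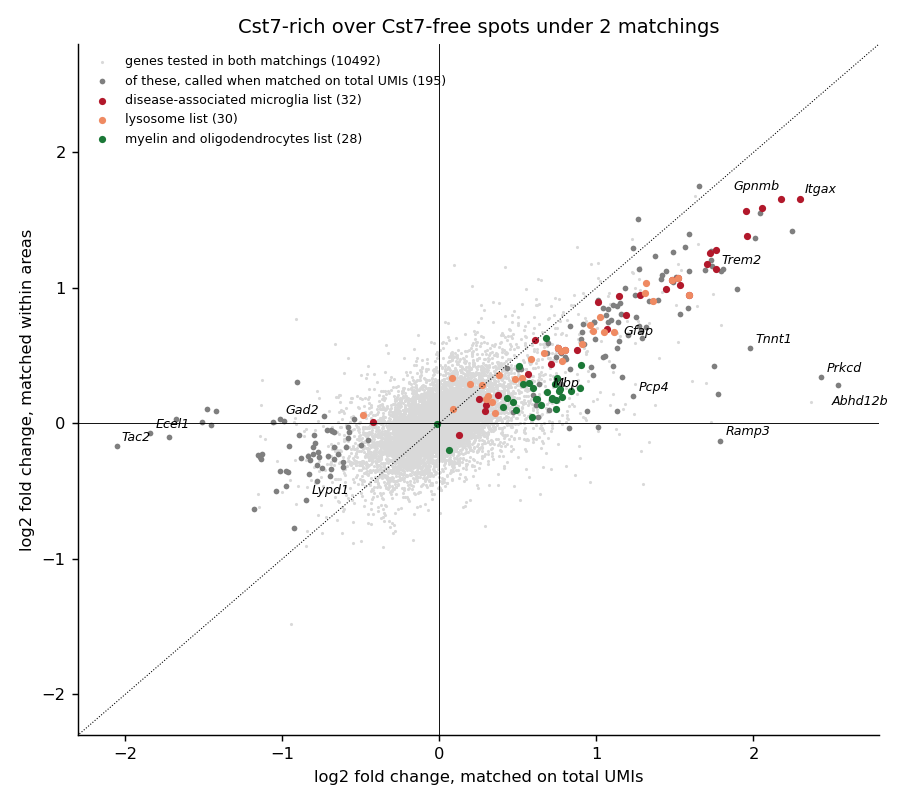
Log2 fold change of Cst7-rich over Cst7-free spots matched on total UMIs (horizontal axis) and matched within areas (vertical axis), 1 point per gene tested in both, with the gene lists named in the legend in colour and the dotted line marking equal values. The disease-associated microglia list stays high on both axes (Trem2 at 1.76 and 1.14), whereas Abhd12b, Prkcd and Ramp3 on the right and Tac2 and Ecel1 on the left fall towards 0 on the vertical axis.

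The gene with the highest fold change was Timp1, an inhibitor of metalloproteinases, with 24 UMIs in the Cst7-rich and 1 in the Cst7-free spots of E3 5xFAD and 22 and 6 in E4 5xFAD (log2 fold change 2.69, adjusted p = 0.0473), too few to test within areas. The minimum of 20 UMIs in each section counted both groups of spots together. Timp1 reached that minimum only through the Cst7-rich spots, so its rank and call carry little weight. Of the 38 genes of a disease-associated microglia list, 33 were tested and 20 rose, none fell, and the median log2 fold change was 1.19, against -0.01 over all genes tested. Clec7a, a member of the list, was not analysed here, and Ch25h, Cd22, Atp6v0d2 and Cybb were too sparse to test. Matched within areas, 20 of 32 rose and the median was 0.92. The median of the list's log2 ratios was 2.04 in E3 5xFAD and 0.80 in E4 5xFAD when matched on total UMIs, and 1.43 and 0.61 within areas. The list was chosen with earlier results of these sections known, as were all lists below.

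Trem2, the receptor itself, stood at 338 CPM in the Cst7-rich and 65.6 CPM in the matched Cst7-free spots of E3 5xFAD, and at 280 and 111 CPM in those of E4 5xFAD. Both Cst7-rich groups were above both Cst7-free groups. The log2 fold change was 1.76 (SE 0.186, adjusted p = 0.00182 by edgeR's quasi-likelihood test), and 1.14 within areas. Single spots overlapped all the same: Trem2 ranged from 0 to 25 UMIs with a median of 3 in the 123 Cst7-rich spots of E3 5xFAD and from 0 to 9 with a median of 1 in their matches, and from 0 to 19 with a median of 4 and from 0 to 12 with a median of 1 in the 330 pairs of E4 5xFAD. Thinned to 4000 UMIs a spot, 73.2% of Cst7-rich and 17.9% of Cst7-free spots of E3 5xFAD kept a Trem2 UMI, and 68.8% and 32.7% of E4 5xFAD did, against 96.7%, 53.7%, 96.1% and 77.6% before thinning.

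Tyrobp, the signalling adaptor of TREM2, stood at 738 and 158 CPM in the Cst7-rich and Cst7-free spots of E3 5xFAD and at 509 and 213 CPM in E4 5xFAD, a log2 fold change of 1.70 (SE 0.174, adjusted p = 0.00179) and of 1.17 within areas. Itgax, the CD11c integrin chain used to mark this state, was sparser, at 38.5 and 5.18 CPM in E3 5xFAD and 23.2 and 5.77 CPM in E4 5xFAD. Its log2 fold change of 2.29 (SE 0.265, adjusted p = 0.00246) was the highest on the list, and was 1.66 within areas. Cd68, a glycoprotein of phagocyte lysosomes, stood at 136 and 37.4 CPM in E3 5xFAD and 95.4 and 36.2 CPM in E4 5xFAD (log2 fold change 1.59, and 0.95 within areas). For these 3 genes, as for Trem2, the Cst7-rich sums of both sections lay above both Cst7-free sums.

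Secreted and surface products of the state rose in both sections by unequal amounts. Gpnmb, a transmembrane glycoprotein of lipid-laden macrophages, had 114 UMIs in the Cst7-rich and 5 in the Cst7-free spots of E3 5xFAD, and 152 and 59 in E4 5xFAD. Its log2 fold change was 2.17, with a section ratio of 4.51 in E3 5xFAD and 1.36 in E4 5xFAD on the log2 scale. Spp1 (osteopontin) stood at 108 and 14.4 CPM in E3 5xFAD and 37.1 and 13.1 CPM in E4 5xFAD, with a log2 fold change of 2.06. The chemokines Ccl3 and Ccl6 had log2 fold changes of 1.95 and 1.76, the growth factor Igf1 1.72, the surface glycoprotein Cd52 1.96 and lysozyme (Lyz2) 1.53. All 7 were called higher within areas as well. Within cortical and hippocampal areas alone Gpnmb (0.93, adjusted p = 0.209) and Spp1 (0.76, adjusted p = 0.277) did not pass, and the other 5 did.

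Members of the list not called higher included several tied to lipid and iron handling. Lpl, lipoprotein lipase, had 79 and 40 UMIs in the Cst7-rich and Cst7-free spots of E3 5xFAD and 236 and 177 in those of E4 5xFAD (log2 fold change 0.61, adjusted p = 0.141). Fth1, the ferritin heavy chain, had a log2 fold change of 0.30 and Fabp5, a fatty acid binding protein, of 0.37, and neither passed. Hif1a, a transcription factor of the hypoxic response, had log2 ratios of 0.52 for E3 5xFAD and -0.14 for E4 5xFAD and a log2 fold change of 0.12 (adjusted p = 0.883). Cd74, the MHC class II invariant chain, reached 27.0 and 5.18 CPM in E3 5xFAD and 25.4 and 14.7 CPM in E4 5xFAD (adjusted p = 0.0719). It did pass when matched within cortical and hippocampal areas (log2 fold change 0.99, adjusted p = 0.0164 by edgeR's quasi-likelihood test).

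**Figure D3:**
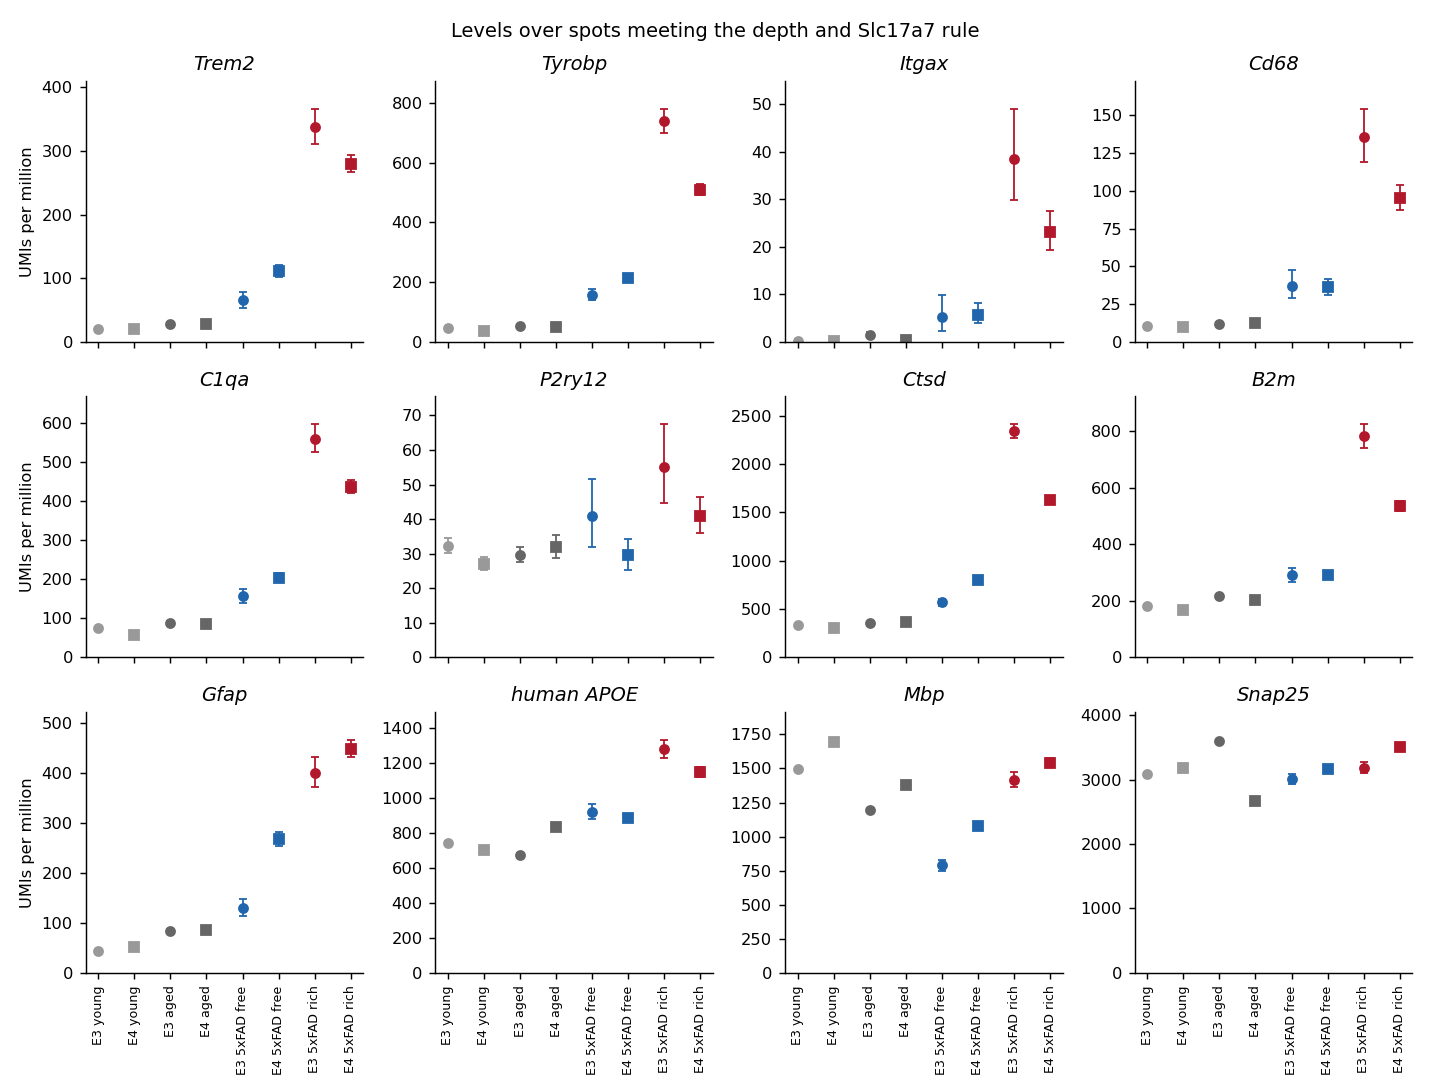
CPM (linear axes from 0) of 12 genes in spots meeting the depth and Slc17a7 rule, by section and Cst7 group (circles E3, squares E4, bars 95% Poisson intervals). Trem2, Tyrobp, Itgax, Cd68, C1qa, Ctsd, B2m, Gfap and human APOE are highest in the Cst7-rich groups, the P2ry12 intervals of the Cst7-rich and matched Cst7-free spots of E3 5xFAD overlap, and Snap25 in the aged sections lies on either side of all 5xFAD groups.

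No homeostatic microglial gene was called lower. Of 16 tested, 8 rose and the median log2 fold change was 0.68 (0.57 within areas, where 8 rose). Fcrls (1.49), Gpr34 (1.27) and Siglech (1.13), all microglial surface receptors, Csf1r (1.13), the receptor on which microglia depend for survival, and the fractalkine receptor Cx3cr1 (0.69) were among those that rose (log2 fold changes). Within areas these 5 were called again, at 1.04, 0.72, 0.75, 0.87 and 0.59. Members often used to mark the homeostatic state had smaller values. P2ry12, the purinergic receptor of process motility, was at 55.2 and 40.8 CPM in E3 5xFAD and 40.9 and 29.5 CPM in E4 5xFAD (log2 fold change 0.47, adjusted p = 0.193). Tmem119 was at 24.7 and 24.2 CPM in E3 5xFAD and 35.5 and 25.3 CPM in E4 5xFAD, a log2 fold change of 0.36 that did not pass.

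Of 14 tested genes of a TREM2 and Fc receptor signalling list, 9 rose and the median log2 fold change was 1.42 (8 and 1.10 within areas). Trem2 and Tyrobp, described above, are 2 of the 9. The Fc receptor gamma chain Fcer1g stood at 184 and 43.7 CPM in E3 5xFAD and 107 and 49.5 CPM in E4 5xFAD, and Laptm5 at 171 and 44.3 CPM and at 133 and 62.0 CPM. The phosphatases Ptpn6 (log2 fold change 1.73) and Inpp5d (1.26), which restrain such receptors, and Spi1 (1.59), the gene of the myeloid transcription factor PU.1, also rose. Spi1 did not pass within areas (1.13, adjusted p = 0.0746).

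Of 9 complement genes tested, 7 rose (5 within areas), with a median log2 fold change of 1.34. The 3 C1q chains, which start the classical pathway and in brain come mainly from microglia, had log2 fold changes of 1.44 (C1qa), 1.35 (C1qb) and 1.39 (C1qc), and of 0.99, 0.90 and 0.91 within areas. C4b, made largely by astrocytes and oligodendrocytes and hard to tell from its near copy C4a by short reads, stood at 145 and 48.3 CPM in E3 5xFAD and 190 and 106 CPM in E4 5xFAD (1.13, and 0.55 within areas). Of 30 lysosomal genes 18 rose, 18 also within areas, with medians of 0.76 and 0.53. The cathepsins led them: Ctsd stood at 2336 and 569 CPM in E3 5xFAD and 1631 and 803 CPM in E4 5xFAD (log2 fold change 1.52, adjusted p = 0.00246), Ctsz had a log2 fold change of 1.48, Ctss of 1.32 and Ctsb of 0.75. Within areas these 4 had 1.07, 1.06, 1.03 and 0.55, all called. Psap, the saposin precursor expressed in every cell type, had 0.08 and did not pass. Of the lysosomal genes 6 are also on the disease-associated microglia list.

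Of 11 MHC class I genes, 4 rose (5 within areas), with a median log2 fold change of 0.93. The shared light chain B2m stood at 782 and 290 CPM in E3 5xFAD and 535 and 293 CPM in E4 5xFAD (1.14, adjusted p = 0.00211), and the heavy chains H2-K1 and H2-D1 rose by 1.07 and 0.98 on the log2 scale. Within areas B2m had 0.94, H2-K1 0.74 and H2-D1 0.75. H2-T22 (0.13) and the proteasome subunit gene Psmb10 (0.01) did not pass in either matching. Reads of the H2 genes can be shared between near-identical copies. Of 15 interferon response genes 2 rose, Ifi27l2a (1.59) and Lgals3bp (1.18), and the median was 0.26. Of 3 MHC class II genes tested none passed in either matching, and 1 of 2, Cd74, passed when matched within cortical and hippocampal areas. Among 10 chemokine and cytokine genes 4 rose, Spp1, Ccl3, Ccl6 and the alarmin Il33 (0.90), which in brain is made mostly by oligodendrocytes and astrocytes.

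Markers of T cells, NK cells and border macrophages were sparse. The 13 genes of a T cell and NK cell list summed to 10 UMIs in the Cst7-rich and 14 in the Cst7-free spots of E3 5xFAD, and to 27 and 33 in E4 5xFAD, with 9, 9, 6 and 5 of the 13 at 0. The 8 genes of a border macrophage list summed to 22 and 10 UMIs in E3 5xFAD and 21 and 31 in E4 5xFAD, and none of them had counts enough to test. The 10 genes of a neutrophil and B cell list summed to 111 and 47 UMIs in E3 5xFAD and 421 and 244 in E4 5xFAD, with 8, 7, 5 and 6 at 0. One of them was tested, Ighm, an immunoglobulin heavy chain gene, and it rose (0.96, and 0.41 with adjusted p = 0.162 within areas). Haemoglobin and other blood genes summed to 53 and 32 UMIs in E3 5xFAD and 86 and 63 in E4 5xFAD.

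Of 14 reactive astrocyte genes tested, 6 rose, with a median log2 fold change of 0.66, and 5 of 13 within areas, with 0.52. The 6 were Timp1, with the sparse counts given above, Serpina3n, Gfap, Srgn, Vim and Ctsl. Of these, Ctsl is also on the disease-associated microglia and lysosomal lists. Gfap, the intermediate filament that marks reactive astrocytes, stood at 401 and 129 CPM in E3 5xFAD and 450 and 268 CPM in E4 5xFAD (log2 fold change 1.14, adjusted p = 0.0063), and at 374 and 189 CPM and 436 and 333 CPM in the pairs matched within areas (0.61). Serpina3n, a secreted protease inhibitor, stood at 208 and 40.3 CPM in E3 5xFAD and 195 and 124 CPM in E4 5xFAD (1.29, adjusted p = 0.0384). It had 0.63 within areas and 0.36 within cortical and hippocampal areas, where it did not pass (adjusted p = 0.13). Its level was also unequal between the sections without the transgenes, with 21.5 CPM in E3 young and 34.5 in E3 aged but 127 in E4 young and 171 in E4 aged. Of 18 homeostatic astrocyte genes 1 rose, Cst3, which encodes cystatin C and is made by several glial types, at 4916 and 3328 CPM in E3 5xFAD and 4587 and 3421 CPM in E4 5xFAD (0.50, adjusted p = 0.00944). Aqp4, the water channel of astrocyte endfeet, had 0.44 (adjusted p = 0.198).

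Human APOE, the knocked-in gene that both astrocytes and activated microglia express, stood at 1276 and 920 CPM in E3 5xFAD and 1146 and 882 CPM in E4 5xFAD. Its log2 fold change was 0.43 (SE 0.0854, adjusted p = 0.0311), 0.41 within areas and 0.28 within cortical and hippocampal areas, and it passed in all 3. Reads assigned to mouse Apoe, most of whose coding sequence these mice lack, were at 73.0 and 91.5 CPM in E3 5xFAD and 86.4 and 96.6 CPM in E4 5xFAD (-0.22, adjusted p = 0.619). Of 24 lipid transport genes 2 rose, human APOE and the lysosomal cholesterol carrier Npc2 (0.98). None of 23 cholesterol synthesis, 21 glycolysis, 20 HIF1 target, 18 TCA cycle, 30 nuclear respiratory chain or 13 mitochondrially encoded genes passed, with medians between -0.15 and 0.12. Hk2, hexokinase 2, was at 6.33 and 5.18 CPM in E3 5xFAD and 5.57 and 4.54 CPM in E4 5xFAD (0.30, adjusted p = 0.869).

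Of 28 myelin and oligodendrocyte genes tested, 10 rose, with a median of 0.66, against 4 and 0.19 within areas. Matched on total UMIs in cortical and hippocampal areas alone, where 3.08% of 9243 genes were higher and 1.9% lower, 21 of 27 rose. Mbp, myelin basic protein, stood at 1419 and 788 CPM in E3 5xFAD and 1541 and 1074 CPM in E4 5xFAD (0.69, adjusted p = 0.00498), but at 1353 and 1194 CPM and at 1382 and 1154 CPM in the area-matched pairs (0.23, adjusted p = 0.0174). Trf, the transferrin gene of oligodendrocytes, had 0.89 and 0.26 and passed in both matchings. Mag (0.78 and 0.19) and Mobp (0.72 and 0.18) passed in the first alone.

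Neuronal genes were called in both directions. Of 32 glutamatergic synapse genes, 1 rose (Cplx1, 0.47) and 2 fell, the AMPA receptor subunit Gria1 (-0.71) and the calcineurin catalytic subunit Ppp3ca (-0.46), and none of the 3 passed within areas. In cortical and hippocampal areas matched on total UMIs, 9 of the 32 fell, and 0 of 32 fell when matched within those areas. Snap25, a vesicle fusion protein of all neurons, stood at 3185 and 3007 CPM in E3 5xFAD and 3507 and 3163 CPM in E4 5xFAD (0.12, adjusted p = 0.659). Of 16 GABA interneuron genes, Pvalb rose (0.63) and Gad2 (-1.02), Calb2 (-1.04), Tac1 (-0.98) and Slc32a1 (-0.80) fell, and none of these 5 passed within areas. Of lists of regional markers, 4 of 8 genes fell for the CA fields of the hippocampus, 3 of 8 for ventral cortex and cortical amygdala, 2 of 8 for upper cortical layers and 2 of 7 for the dentate gyrus. Within areas 0 of 6, 1 of 7, 1 of 7 and 0 of 6 fell. Slc17a7, by which the spots were chosen, was at 772 and 813 CPM in E3 5xFAD and 926 and 817 CPM in E4 5xFAD.

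Several of the highest and lowest genes of the main comparison were among the leading genes of the Tcf7l2-led area or are known from hypothalamus and limbic areas. Prkcd, a protein kinase C gene strong in thalamic neurons, stood at 1076 and 82.8 CPM in E3 5xFAD and 179 and 71.5 CPM in E4 5xFAD (log2 fold change 2.43), and 0.34 remained within areas. Abhd12b (2.54 and 0.28), Tnnt1 (1.98 and 0.55), Synpo2 (1.77 and 0.22) and Ramp3 (1.79 and -0.13) behaved likewise, and of these 5 only Prkcd passed within areas (adjusted p = 0.00121). At the other end were the hypothalamic or limbic neuropeptide and developmental genes Tac2 (-2.06 and -0.17), Ecel1 (-1.84 and -0.07), Dlk1 (-1.72 and -0.10) and Nts (-1.48 and 0.10), the pituitary hormone Prl (-2.97) and Magel2 (-2.53), the last of which, with Prl, had too few UMIs to test within areas. The hypothalamic peptide gene Hcrt stood at 167 CPM in the Fezf2-led cortical area of E3 5xFAD and at 1.14 CPM in that of E4 5xFAD.

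Of the 8 genes lower within areas, Lypd1, a nicotinic receptor modulator of deep cortical and amygdalar neurons, was at 44.3 and 62.9 CPM in E3 5xFAD and 52.3 and 79.1 CPM in E4 5xFAD (-0.56, adjusted p = 0.00276), and Calb1, the calcium buffer calbindin, at 113 and 167 CPM and 140 and 163 CPM (-0.33, adjusted p = 0.0453). Sertm1 was the third that was also lower in the main comparison. Ggcx, Mtf2, Btbd11, Pantr1 and Syngr3 were the others, named after their values were seen.

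The microglial differences were present in cortex and outside it. In cortical and hippocampal areas matched within areas (60 pairs from E3 5xFAD and 163 from E4 5xFAD), 68 of 9168 genes were higher (0.742%) and 1 was lower (0.0109%). Of the disease-associated microglia list 18 of 29 rose, of the lysosomal list 15 of 29, and of the complement list 4 of 8. In the Tcf7l2-led area (35 and 20 pairs), 64 of 5306 genes were higher (1.21%) and 13 lower (0.245%), and 15 of 23, 14 of 24 and 5 of 6 genes of the same lists rose. One complement gene fell there. The median log2 fold change of the disease-associated microglia list was 0.78 in the former and 1.10 in the latter. Both restrictions were set after the areas were seen.

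**Figure D4:**
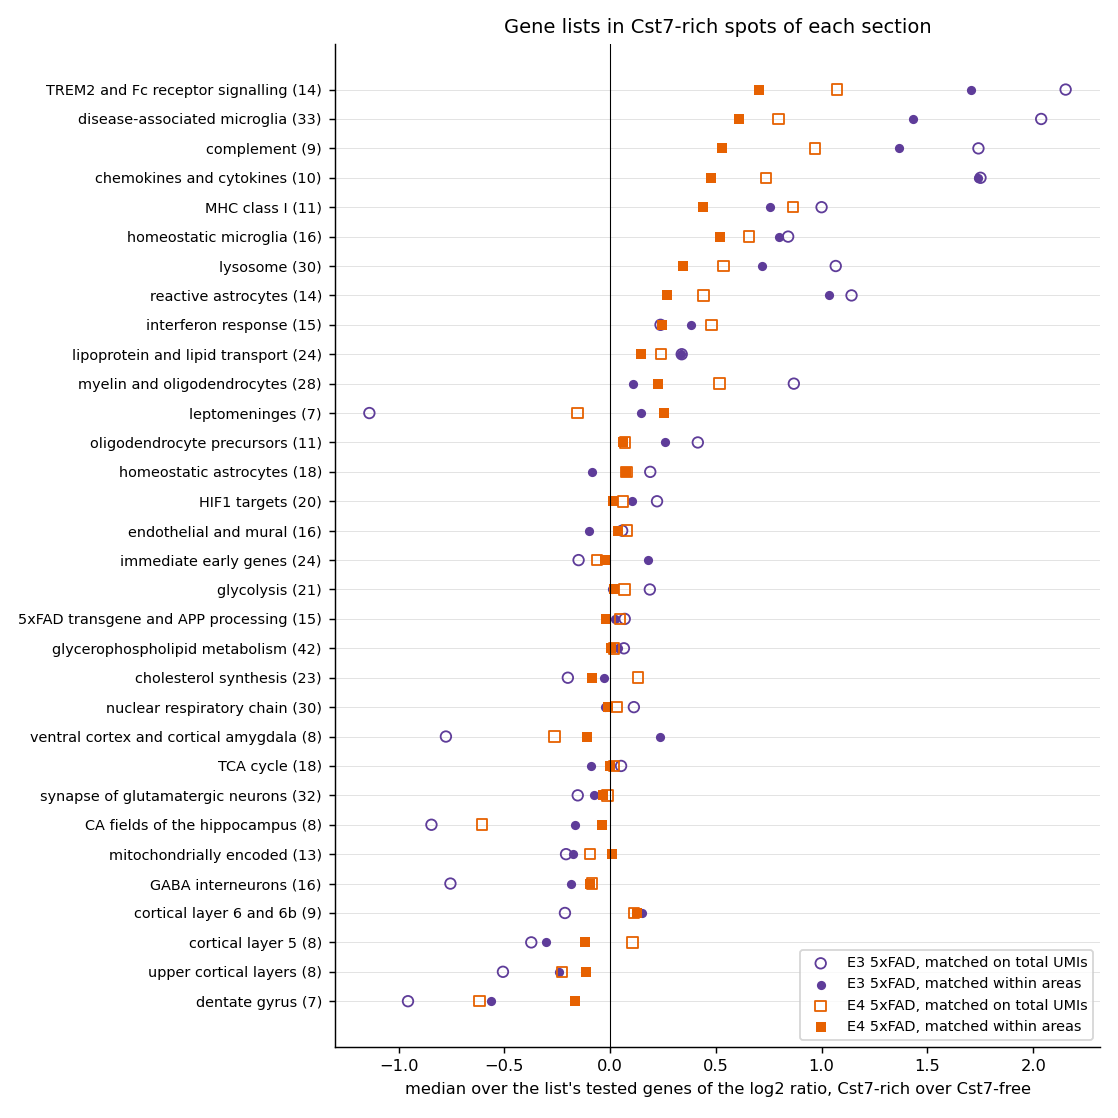
Median log2 ratio of Cst7-rich to Cst7-free spots over the tested genes of each list (number in brackets), for E3 5xFAD (circles) and E4 5xFAD (squares), matched on total UMIs (open) and within areas (filled). The TREM2 list lies at 2.15 and 1.07 and the complement list at 1.74 and 0.97 with open symbols, their filled symbols lie further left, and glycolysis, TCA cycle and respiratory chain lists lie near 0.

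Levels were also followed across classes of Cst7 count. Trem2 stood at 77.4, 99.3, 150, 238, 443 and 862 CPM in E3 5xFAD spots with 0, 1, 2, 3 to 4, 5 to 9 and 10 or more Cst7 UMIs, and at 114, 141, 184, 233, 347 and 541 CPM in those of E4 5xFAD. Ctsd went from 609 to 5367 CPM and from 851 to 3571 CPM over the same classes. The top class held 8 spots of E3 5xFAD and 10 of E4 5xFAD. P2ry12 stayed between 35.6 and 51.6 CPM in E3 5xFAD and between 30.1 and 44.5 CPM in E4 5xFAD below the top class, and was at 100.1 and 51.3 CPM in it. The classes differ in area as well as in Cst7, as Prkcd shows, at 130 CPM in the class of 0 and 1148 CPM in that of 5 to 9 in E3 5xFAD. In cortical and hippocampal spots alone, Trem2 stood at 76.5, 93.0, 132, 228 and 317 CPM in the 5 classes below 10 Cst7 UMIs of E3 5xFAD, the last with 14 spots, and at 119, 140.5, 186, 220 and 341 CPM in those of E4 5xFAD. Nrgn, a forebrain neuronal gene, went from 3042 to 2393 CPM over these classes in E3 5xFAD and from 2895 to 2722 CPM in E4 5xFAD.

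**Figure D5:**
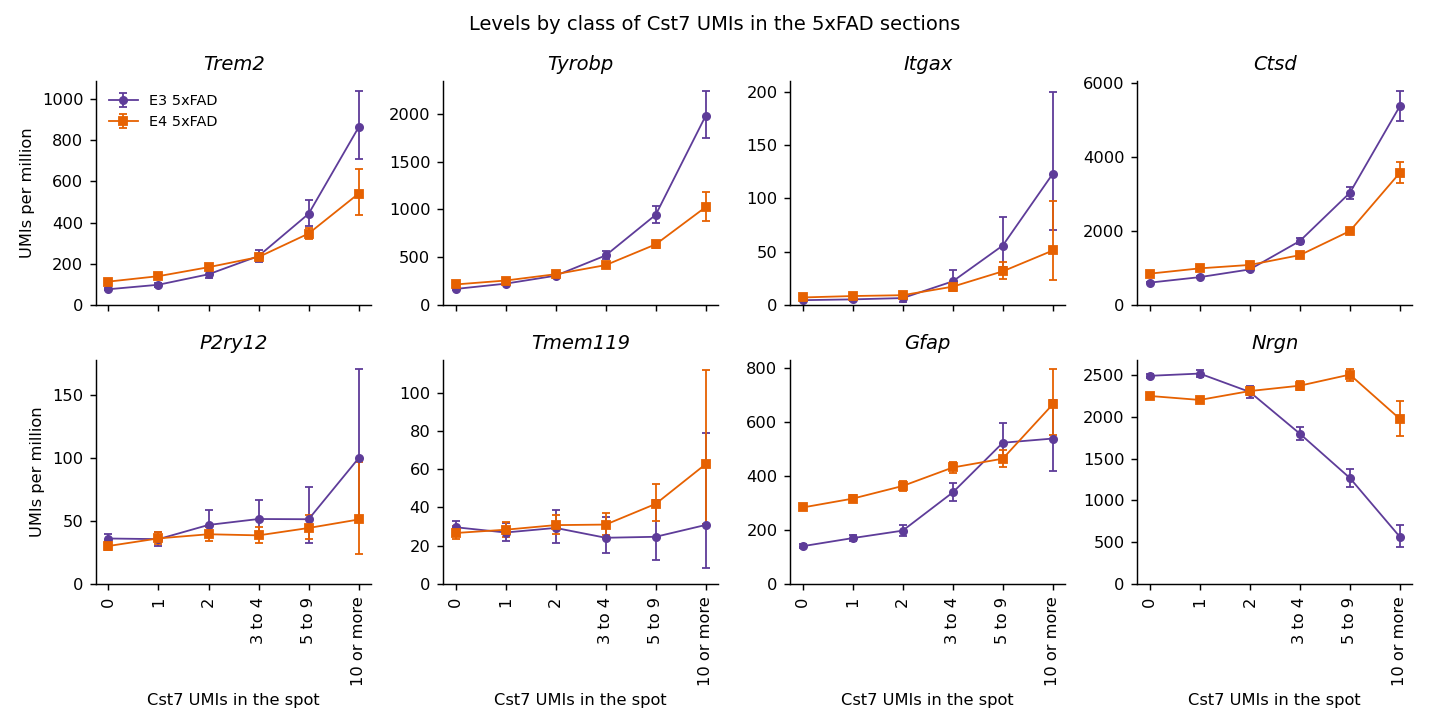
CPM of 8 genes by class of Cst7 UMIs per spot in E3 5xFAD (circles) and E4 5xFAD (squares), unmatched, with 95% Poisson intervals. Trem2, Tyrobp, Itgax and Ctsd climb from the lowest to the highest class, and P2ry12 reaches 100.1 CPM in the 8 top spots of E3 5xFAD. Nrgn goes from 2494 to 562 CPM in E3 5xFAD and from 2252 to 1976 CPM in E4 5xFAD. The classes differ in area, and 1 of the 8 top spots of E3 5xFAD lies in cortical or hippocampal areas.

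Cst7-free spots of the 5xFAD sections were not at the level of the sections without the transgenes. Over all Cst7-free spots, Trem2 stood at 77.4 CPM in E3 5xFAD and 114 CPM in E4 5xFAD, against 20.7 in E3 young, 20.6 in E4 young, 28.7 in E3 aged and 29.0 in E4 aged. Tyrobp stood at 170 and 217 CPM against 36.8 to 54.3 CPM in the 4 other sections, C1qa at 177 and 213 against 57.1 to 89.1, Cd68 at 35.4 and 39.8 against 9.67 to 12.6, and Gfap at 140 and 283 against 42.9 to 85.9. For these 5 genes both 5xFAD values lay above all 4 others. P2ry12 was at 36.1 CPM in E3 5xFAD, above the range of the others (27.1 to 32.4 CPM), and at 30.1 CPM in E4 5xFAD, within it. Each value is 1 section, and the 5xFAD mice differed from the others in age and strain background as well as in the transgenes.

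The transgenes themselves give a check of the labels. Human APP stood at 68.3 and 88.9 CPM in the Cst7-free spots of E3 5xFAD and E4 5xFAD, and at 0.36 CPM or less in the other sections. Reads of Thy1, whose promoter and flanking sequence the transgenes carry, stood at 3824 and 4972 CPM against 751 to 842 CPM. Between Cst7-rich and matched Cst7-free spots human APP did not pass (0.33, adjusted p = 0.374), nor did it within areas (0.01). Over all areas and without thinning, the 2 sections went different ways. Human APP was found in 47.2% of Cst7-rich and 52.0% of matched Cst7-free spots of E3 5xFAD, and in 75.8% and 66.1% in E4 5xFAD. Thy1 had medians of 41 and 45 UMIs a spot in E3 5xFAD, and of 125 and 72 in E4 5xFAD. Whether the sections differ was not tested.

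Levels in E4 5xFAD and E3 5xFAD were also set side by side at equal Cst7 counts. When 107 Cst7-rich spots of each section were paired on Cst7 class and total UMIs, the median E4 over E3 log2 ratio of the disease-associated microglia list was -0.12, with 1 of 33 members having a counting interval above 0 and 11 below. Among 600 pairs of Cst7-free spots it was 0.47, with 26 intervals above 0 and 1 below. Over all genes, 919 of 10868 intervals were above 0 and 722 below among the Cst7-rich pairs, and 2184 of 11225 above and 1046 below among the Cst7-free pairs. With area added to the pairing the list's medians were -0.06 (59 pairs, 2 of 32 intervals above 0 and 3 below) and 0.40 (500 pairs, 24 of 33 above and 0 below). The medians over all genes, without area, were 0.03 and 0.06. Whether the 2 ratios differ was not tested, as each genotype is 1 brain. Trem2 stood at 306 CPM in E3 5xFAD and 309 CPM in E4 5xFAD among paired Cst7-rich spots (log2 ratio 0.02, 95% interval -0.17 to 0.20), and at 69.6 and 118 CPM among paired Cst7-free spots (0.76, 0.61 to 0.90). Ctsd was lower in E4 5xFAD among Cst7-rich spots, at 1729 against 2131 CPM, and higher among Cst7-free spots, at 855 against 582 CPM. The pairs behind these Trem2 and Ctsd values were not paired on area. Over the lysosomal list, Cst7-rich pairs had a median of -0.13 without area (2 of 30 intervals above 0, 9 below). With area the median was 0.008 (3 of 29 above, 2 below). For Cst7-free pairs the list's medians were 0.25 without area and 0.27 with it.

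Other genes gave other values. Gfap was higher in E4 5xFAD in both kinds of spot (log2 ratios 0.53 and 1.21), as was C4b (0.64 and 1.22). Of 24 immediate early genes 13 and 19 had intervals above 0, with medians of 0.70 and 0.67. With area added to the pairing 7 of 21 and 17 of 24 did, with medians of 0.32 and 0.51. Without area, 11 and 12 of 13 mitochondrially encoded genes had intervals below 0 in Cst7-rich and Cst7-free pairs. These are differences between 2 brains, 1 of each genotype, and genotype, brain and section cannot be told apart. The 2 matrices were also written by different Space Ranger versions (2.0.0 for E3 5xFAD and 1.2.2 for E4 5xFAD), whose part in these ratios was not tested.

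Promoters of the higher genes were searched for 4 short motifs on both strands, over the 250 bases before and 50 after each RefSeq start site: GAGGAAGT, the core bound by PU.1, CACGTG, the E-box also bound by lysosomal gene regulators, TGANTCA, the AP-1 site, and the core of the interferon-stimulated response element. CACGTG and TGANTCA read the same on both strands, and none of the 4 contains another. Of the 138 higher genes 103 had a promoter in the table, with 124 promoters in all. GAGGAAGT was in 8.87% of these, against 2.71% of the 11635 promoters of tested genes and 3.20% of all 32851 in the table. The interferon-stimulated response element core was in 9.68%, against 2.71% and 3.44%, TGANTCA in 7.26%, against 4.70% and 7.81%, and CACGTG in 8.06%, against 10.1% and 7.15%. These shares are descriptions, and a match is not a binding site.

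The promoters of 5 genes higher in both matchings are shown, from RefSeq on GRCm38.p6, each in the direction of its gene with the match in capitals. Spp1 (chr5:104434861-104435160, plus strand), Ctss (chr3:95526536-95526835, plus strand) and C1qc (chr4:136892865-136893164, minus strand) hold GAGGAAGT or its reverse complement. Ctsd (chr7:142387778-142388077, minus strand) holds CACGTG at 2 places, and B2m (chr2:122147437-122147736, plus strand) holds the interferon-stimulated response element core. The Spp1 and Ctss promoters also hold that core or its reverse complement, left in lower case. They come from the microglial, cathepsin, complement and antigen presentation genes described above.
Spp1: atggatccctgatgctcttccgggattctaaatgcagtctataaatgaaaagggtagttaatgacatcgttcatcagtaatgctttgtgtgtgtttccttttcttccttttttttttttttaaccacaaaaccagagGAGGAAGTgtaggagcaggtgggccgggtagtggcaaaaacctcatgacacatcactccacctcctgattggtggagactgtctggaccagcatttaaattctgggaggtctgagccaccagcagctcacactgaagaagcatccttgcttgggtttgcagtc
Ctss: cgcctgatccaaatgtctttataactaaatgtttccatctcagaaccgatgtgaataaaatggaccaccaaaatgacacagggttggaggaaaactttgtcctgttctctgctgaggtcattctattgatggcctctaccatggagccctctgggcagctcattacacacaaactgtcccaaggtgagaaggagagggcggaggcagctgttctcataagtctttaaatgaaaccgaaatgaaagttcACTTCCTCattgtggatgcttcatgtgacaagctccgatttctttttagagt
C1qc: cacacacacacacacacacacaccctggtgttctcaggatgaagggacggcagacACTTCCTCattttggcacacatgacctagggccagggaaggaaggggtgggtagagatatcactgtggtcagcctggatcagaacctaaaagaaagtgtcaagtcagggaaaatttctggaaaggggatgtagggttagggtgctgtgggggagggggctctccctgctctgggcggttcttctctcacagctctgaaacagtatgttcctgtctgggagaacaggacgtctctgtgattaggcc
Ctsd: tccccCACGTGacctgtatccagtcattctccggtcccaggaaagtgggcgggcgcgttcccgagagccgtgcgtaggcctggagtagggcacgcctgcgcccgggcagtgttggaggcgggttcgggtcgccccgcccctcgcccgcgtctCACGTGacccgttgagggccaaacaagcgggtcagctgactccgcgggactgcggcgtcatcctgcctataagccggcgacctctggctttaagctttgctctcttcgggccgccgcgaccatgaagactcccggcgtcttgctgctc
B2m: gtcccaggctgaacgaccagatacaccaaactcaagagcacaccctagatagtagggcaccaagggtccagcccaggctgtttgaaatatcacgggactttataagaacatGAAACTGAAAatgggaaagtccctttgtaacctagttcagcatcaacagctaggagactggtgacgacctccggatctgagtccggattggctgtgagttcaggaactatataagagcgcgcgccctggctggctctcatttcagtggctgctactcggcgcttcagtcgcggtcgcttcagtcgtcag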

How the data were processed

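Each of the 6 groups was 1 Visium section. Per the labels and the study's methods, the authors ran Space Ranger 1.3.0 with STAR 2.5.1b. The methods name mm10, and the labels and the deposited feature lists hold both human GRCh38 and mouse mm10. Per the file headers, the matrices were written by version 2.0.0 (E3 5xFAD) and 1.2.2 (the others). The deposited values were raw UMI counts per gene and spot. Mouse genes and 3 human genes, APOE and APP among them, were kept. Some genes are not reported here. Per-section depth is given with the results.

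Members and gene lists were chosen with earlier results of these data known. UMI counts were summed over spots and tested with edgeR 4.0.16 (R 4.3.3; quasi-likelihood, TMM, section as a term, genes with 20 UMIs in each section, Benjamini-Hochberg adjusted p of 0.05). Folds are log2 values of edgeR, and SEs were derived from the fold change and its p. Section ratios and E4 over E3 ratios are log2 ratios of CPM with exact conditional binomial 95% intervals. The study's methods test spots as replicates; here a section was 1 sample. Areas came from k-means (12 clusters, 20 principal components of 2000 variable genes, scikit-learn 1.9.0) on genes outside the glial, immune, blood, vessel and transgene lists. The fit was tested on simulated data.

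Genes named were the 20 highest and 10 lowest called genes, up to 4 called members of each list, and a set of 16 genes of interest; any others were picked after their values were seen. Alternatives were other matchings, Cst7 thresholds, depth minimums, filters, normalization, DESeq2 1.42.0 and no section term.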

Additional observations from a re-analysis of the deposited data

Results flagged for a closer look

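Ttr, the transthyretin gene of the choroid plexus, moved in opposite directions in the 2 sections, with a log2 ratio of Cst7-rich to Cst7-free spots of 0.41 in the section of E3 5xFAD and -0.65 in that of E4 5xFAD. The difference was not tested. Matched within areas the ratios were -0.07 and 0.03.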

How the results depend on the processing

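No paired analysis was possible because, between groups of mice, every group has 1 section and replicate numbers only name samples. Within a section, the section term pairs Cst7-rich with Cst7-free sums. Against 138 higher and 64 lower genes, the nearest Cst7-free spot gave 243 and 102, 5 or more Cst7 UMIs 80 and 19, a minimum of 8000 UMIs 212 and 106, DESeq2 37 and 11, a filter of 1 UMI 346 and 191, a filter of 100 UMIs 67 and 25, and no section term 45 and 6. Unmatched spots gave 80 higher, cortical areas only 248 higher, and matching within areas 8 lower. Among alternatives chosen after seeing the data, cortical and hippocampal areas gave 285 and 176, the same matched within areas 68 and 1, and the Tcf7l2-led area 64 and 13. The causes were not tested. P-values of the nearest-spot and area fits carry no spread of a gene's own, so their counts do not compare directly with those of the main fit. The disease-associated microglia median stayed between 0.78 and 1.63 under these settings, and was 0.80 without E3 5xFAD and 2.04 without E4 5xFAD, values with no residual degrees of freedom. Its E4 over E3 ratio was -0.32 in unpaired Cst7-rich and 0.33 in unpaired Cst7-free spots.

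Of 84 called genes named or listed, 41 of the 77 with a value were still called within areas, 31 were not and 5 changed sign. Ptgds (-0.37 and not called when matched on total UMIs) turned too. By edgeR's quasi-likelihood test it was called higher within areas (adjusted p = 0.0215), in cortical areas only (adjusted p = 0.00734) and in the Tcf7l2-led area (adjusted p = 0.0346). Within areas the reversed values were Ramp3 -0.13, AW551984 0.033, Sncg 0.013, Nts 0.10, Gad2 0.029 and Ptgds 0.24. In cortical areas only they were Synpo2 -0.21, Tac1 0.16, Slc32a1 0.081, Ptgds 0.23, Cabp7 0.14 and Baiap3 0.0027. In cortical and hippocampal areas they were Prkcd -0.011, Synpo2 -0.10, Dlk1 0.0020, Tac1 0.18, Slc32a1 0.078 and Baiap3 0.12. Matched within those areas they were Ramp3 -0.14, Nts 0.15, Calb2 0.00092, Gad2 0.13, Slc32a1 0.076, Cabp7 0.0064 and Baiap3 0.091. In the Tcf7l2-led area they were Ramp3 -0.14 and Ptgds 0.41.

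Genes under 20 UMIs in a section, 9661 in all, were not tested. Each 5xFAD genotype is 1 brain, so no value covers differences between animals. Area makeup differed between Cst7-rich and Cst7-free spots, and matching within areas dropped 23 and 137 Cst7-rich spots.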
